A study of Mus musculus with 12 samples.

Results

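Cullins and the substrate adaptors that bring proteins to them were followed in mouse embryonic stem cells in which the translation release factor eRF1 could be degraded. The members were all gene symbols of the cullin (Cul), F-box (Fbxl, Fbxw, Fbxo), Klhl, Kbtbd, Fem1, Kctd and Dcaf series in the deposited tables, together with Ibtk, Keap1, Spop, Skp1 and Skp2 and without Fbxl5. The rule works on gene names and uses no measured value, though it was drawn up with earlier results of these data known. The symbols numbered 176 of 22034 rows in the footprint table and 178 of 49997 rows in the RNA table, 179 in all, of which 175 were in both tables.

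The cells were of the line ES-E14TG2a, and every one of the 12 libraries came from cells with a dTAG degron on eRF1, which reads stop codons and frees the finished protein chain. Ribosome footprints, mRNA pieces shielded from nuclease by a translating ribosome, were sequenced from Gcn2 knockout cells given 500 nM dTAG-13 for 1 h, from untreated Gcn2 knockout cells, from wild-type cells given the same dose for the same time, and from untreated wild-type cells. Poly(A) RNA was sequenced from treated and from untreated wild-type cells only. Each of these 6 groups had 2 libraries, labelled as biological replicates A and B, and nothing in the labels says whether they were separate cultures, so the p-values measure only the spread between these libraries. The kinase Gcn2 senses uncharged tRNA and stalled ribosomes and slows initiation by phosphorylating eIF2. Wild type here means an intact Gcn2 gene, and the labels do not say whether the knockout was 1 clone. The groups include neither vehicle-treated cells nor untagged cells given the compound, so an effect of the compound and an effect of losing eRF1 cannot be told apart.

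Cullin-RING ligases attach ubiquitin to proteins and mark most of them for the proteasome. A cullin is the scaffold: its C-terminal end holds the RING protein and the ubiquitin-charged enzyme, and its N-terminal end holds an exchangeable adaptor that chooses the substrate. CUL1 binds F-box proteins through SKP1, CUL2 and CUL5 bind their receptors through elongins, CUL3 binds BTB-domain proteins directly, and CUL4A and CUL4B bind WD40 receptors of the DCAF type through DDB1. The dTAG method itself works through such a ligase, since dTAG-13 joins the tagged protein to cereblon, a receptor of CUL4.

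Footprint libraries held between 7874804 counts, in treated wild-type replicate A, and 19691716 counts, and RNA libraries between 17462458 and 24256097. The members took 0.459% and 0.463% of all footprint counts in treated knockout cells, against 0.543% and 0.511% in untreated knockout cells, and 0.482% and 0.523% in treated wild-type cells, against 0.517% and 0.543% in untreated wild-type cells. Of RNA counts they took between 0.663% and 0.674% in each library. All 10 embryonic stem cell markers looked up were present, with a summed level between 9582 and 10430 CPM (counts scaled to a common library size) in every footprint library, while 7 fibroblast markers summed to at most 14.4 CPM and 6 primitive endoderm markers to at most 10.04 CPM. The summed level of 6 markers of primed or early differentiating cells was 61.3 to 70.1 CPM in treated knockout libraries, against 50.02 to 57.5 CPM in untreated ones, and 77.97 to 82.6 CPM in treated wild-type libraries, against 53.1 to 60.4 CPM in untreated ones. Of these markers Nes, the gene of the neural progenitor filament nestin, was the only one with a called footprint change. It rose in both genotypes (0.48 in the knockout, adjusted p = 0.046, and 0.81 in wild type, adjusted p = 0.00605). In wild type Nes had 68.1 and 60.25 CPM treated, against 37.0 and 36.1 untreated. Otx2 (−0.26 in the knockout and −0.32 in wild type), Sox1 (−0.36 and −0.29) and Pou3f1 (0.55 and −0.15) did not pass. Fgf5 and T were not tested for footprints. The summed RNA level of the set was 73.4 to 74.4 CPM in treated and 77.3 to 82.1 CPM in untreated libraries. The primitive endoderm marker Gata4, at 1 to 4 CPM, fell in the knockout (−1.17, adjusted p = 0.0472). The part of these shifts in the members' changes was not tested. The deposited counts do not say how reads shared by near-identical genes were divided, nor whether footprints outside the coding sequence were counted.

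Of the 179 symbols, 129 passed the filter on low footprint counts and were tested, and 134 were tested for RNA. The 50 untested ones were 3 absent from the footprint table, 14 at 0 counts in all 8 footprint libraries and 33 with at most 49 counts over the 8 libraries together. Of the 14 at 0, 9 were Fbxw genes and 5 Klhl genes (Klhl1, Klhl4, Klhl14, Klhl31 and Klhl38). The untested members included 15 of 24 Fbxw genes, most of them from a rodent group of near-identical copies. All 8 cullins, Skp1, Ibtk, Spop and all 3 Fem1 genes passed.

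In Gcn2 knockout cells, the footprints of Ibtk, Kbtbd2 and Fem1b fell most after treatment, and those of 6 further members fell: the scaffolds Cul1 and Cul5, the F-box genes Skp2 and Fbxo25, the CUL3 adaptor gene Klhl24 and the CUL4 receptor gene Dcaf7. Fbxw17 rose, at a level near 1 to 3 CPM. In all, 10 of 129 members (7.75%) were called at an adjusted p under 0.05, 9 lower and 1 higher, against 8.88% of all 12267 genes tested, so the share of members called was close to that of genes at large. Called lower were 6.98% of the members and 5.71% of all genes, and called higher 0.775% and 3.16%. The median log2 change of the members was −0.01, beside 0.04 over all genes. In these bulk samples, fewer cells of a kind and less RNA or fewer footprints per cell cannot be told apart. All changes here are relative, since each library was scaled to a common size and no absolute measure of translation was used. A fall is therefore a smaller share of the library. Counts per gene also do not separate elongating ribosomes from ribosomes held at a stop codon. With 1 library left out the number of members called was 6 without untreated knockout replicate A, 7 without untreated knockout replicate B, 5 without treated knockout replicate A and 3 without treated knockout replicate B, and the calls of Ibtk, Kbtbd2 and Fem1b held in each of these and in all 12 alternative analyses. With libraries scaled by their totals, which shifts the median of all genes by −0.13, 17 of 129 members were called, 17 lower and 0 higher, beside 11.3% of all genes.

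In wild-type cells, the footprints of Fem1b, Kbtbd2, Cul3 and Cul1 fell after treatment, and no member passed the test as higher. These 4 of 129 members (3.10%) stand beside 4.88% of all genes tested, and beside 1.94% of all genes called lower and 2.94% called higher. The median change was −0.07 for the members and −0.01 over all genes. Without untreated wild-type replicate A 1 member was called (Skp2), without untreated replicate B 7, without treated replicate A 2 (Fem1b and Kbtbd2) and without treated replicate B 2 (Cul1 and Fbxo42). When the wild-type libraries were fitted without the knockout ones edgeR called 0 members, beside 0.159% of all genes, with 20 members at an unadjusted p under 0.05 and adjusted p for the 4 genes between 0.0707 and 0.151.

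Cul1, the scaffold of the SCF ligases that carry the F-box proteins, had 138 and 129 footprint CPM in treated knockout libraries, against 213 and 199.5 in untreated knockout libraries. It had 157 and 163 CPM in treated wild-type libraries, against 234 and 236 in untreated ones. In both genotypes every treated library lay below every untreated one. With 2 libraries a group such separation was common. Treated libraries lay below untreated ones for 43 of 129 members in the knockout and above for 41, and in wild type for 42 and 29. It was not counted over all genes and is given below as a description only. The log2 changes were −0.63 in the knockout (SE 0.107, adjusted p = 0.00328) and −0.55 in wild type (SE 0.107, adjusted p = 0.0118). The knockout call was lost without treated replicate B, and the wild-type call without untreated replicate A or treated replicate A. Cul1 spans chr6:47453732-47526144 in the RefSeq annotation of GRCm38.p6 and overlaps no other annotated gene.

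Cul3, the scaffold for BTB adaptors (chr1:80264923-80340690), had 80.0 and 77.6 CPM in treated knockout libraries, against 111 and 93.3 in untreated knockout libraries. It had 71.5 and 78.0 CPM in treated wild-type libraries, against 114 and 109 in untreated ones. The groups were apart in both genotypes, but only the wild-type change passed the test (−0.57, SE 0.123, adjusted p = 0.0182), and the knockout change was −0.37 (SE 0.122, adjusted p = 0.0756). The difference between these changes, 0.20 (SE 0.173, adjusted p = 0.758), did not pass, so the genotypes are not shown to differ. The wild-type call held in 1 of the 4 fits that left out a wild-type library, the one without untreated replicate B.

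Cul5, which carries SOCS-box receptors (chr9:53614581-53667507), had 63.2 and 58.1 CPM in treated knockout libraries, against 109 and 84.9 in untreated knockout libraries. In wild type it had 91.3 and 101 CPM treated, against 104 and 135 untreated. Treated libraries lay below untreated ones in both genotypes, with a called change of −0.68 in the knockout (SE 0.156, adjusted p = 0.0166) and an uncalled one of −0.31 in wild type (SE 0.154, adjusted p = 0.301). The knockout call held in 1 of 4 fits with a knockout library left out.

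The other cullins did not pass the test in either genotype. Cul4b, one of the CUL4 scaffolds, had 434 and 394 CPM in treated and 459 and 337 CPM in untreated knockout libraries, and its changes were 0.06 in the knockout and 0.23 in wild type. Cul4a, which shares its receptors with Cul4b, had changes of −0.24 and −0.36 in the same order, the wild-type one at an unadjusted p of 0.0112 (adjusted p = 0.116 with edgeR). Those of Cul2, the scaffold of VHL and of the FEM1 proteins, were −0.22 and −0.05, and those of Cul7, which works with FBXW8, were 0.13 and 0.21. Cul9, an atypical large cullin, was at 1.72 to 2.46 CPM in the knockout libraries and had a change of −0.38 (SE 0.347) there. Over the 8 cullins the median change was −0.31 in the knockout and −0.29 in wild type, with 6 of 8 below 0 in each genotype. Of all 12267 genes, 5579 in the knockout and 6276 in wild type were below 0. The cullins were not tested as a group.

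Skp1, the linker between CUL1 and every F-box protein, had 419 and 409.5 CPM in treated knockout libraries, against 388 and 370.4 in untreated ones. Its changes of 0.13 in the knockout (adjusted p = 0.539) and 0.15 in wild type (adjusted p = 0.509) did not pass. Skp2, the F-box receptor known for degrading the cell cycle inhibitor p27, had 34.4 and 32.6 CPM in treated knockout libraries, against 46.7 and 52.5 in untreated ones. In wild type it had 33.7 and 37.2 CPM treated, against 42.0 and 57.7 untreated. Treated libraries lay below untreated ones in both genotypes, and the change passed in the knockout (−0.57, SE 0.157, adjusted p = 0.0411) but not in wild type (−0.49, SE 0.158, adjusted p = 0.102). The knockout call was lost with any single knockout library left out. Skp2 lies at chr15:9111982-9155425 and shares 34.3% of its span with Lmbrd2, and how reads in the shared stretch were assigned is not given.

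Of 54 F-box genes tested, Skp2 included, edgeR called 3 in the knockout and 0 in wild type, beside 8.88% and 4.88% of all genes. In wild type 6 of the 54 were at an unadjusted p under 0.05, beside 2335 of all 12267 genes, so the F-box genes did not stand out. Fbxo25, an F-box gene at chr8:13907736-13942875, had 28.7 and 25.8 CPM in treated knockout libraries, against 43.6 and 41.6 in untreated ones, and 35.6 and 35.7 CPM in treated wild-type libraries, against 38.4 and 39.2 untreated. The treated knockout libraries stood apart from the other 6, with a change of −0.65 (SE 0.127, adjusted p = 0.0076), while the wild-type change was −0.12 (SE 0.127). The knockout call was lost without treated replicate A (adjusted p = 0.0553) or treated replicate B (adjusted p = 0.142). Fbxw17, at chr13:50417835-50433781, had 2.58 and 3.23 CPM in treated knockout libraries, against 1.18 and 1.46 in untreated ones. Its change of 1.15 (SE 0.316, adjusted p = 0.0401) was lost with any knockout library left out, with DESeq2 (adjusted p = 0.174) and with library totals. The changes of the other F-box genes in wild type ran as low as −0.78 and as high as 0.71 with none called, and both ends belonged to genes below 1 CPM on average, Fbxo44 and Fbxl9, named after their values were seen.

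Kbtbd2, a CUL3 adaptor known in mice for degrading the regulatory subunit of PI3-kinase in insulin signalling, had 10.3 and 9.48 CPM in treated knockout libraries, against 35.7 and 26.5 in untreated ones. In wild type it had 22.3 and 15.7 CPM treated, against 32.2 and 30.3 untreated. Treated libraries lay below untreated ones in both genotypes, and the treated knockout libraries below all others. The changes were −1.65 in the knockout (3.14-fold lower, SE 0.200 on the log2 scale, adjusted p = 0.000453) and −0.74 in wild type (SE 0.193, adjusted p = 0.0446). The wild-type call held in 1 of 4 fits with a wild-type library left out, where the change ran between −0.999 and −0.48. Kbtbd2 lies at chr6:56777525-56797813, and the predicted gene Gm10209 covers 16.6% of its span.

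Ibtk encodes a BTB protein first described as an inhibitor of Bruton tyrosine kinase and later as a CUL3 adaptor, and its mRNA is known for upstream reading frames that respond to eIF2 phosphorylation. It lies at chr9:85687359-85750703 and overlaps no other annotated gene. It had 14.3 and 16.6 CPM in treated knockout libraries, against 57.7 and 50.5 in untreated ones. In wild type it had 44.3 and 46.6 CPM treated, against 47.1 and 57.1 untreated. The treated knockout libraries stood far below the other 6, which lay within a narrow band. The change was −1.81 in the knockout (3.49-fold lower, SE 0.151 on the log2 scale, adjusted p = 7.0e-05) and −0.19 in wild type (SE 0.142, adjusted p = 0.506). The counts do not separate footprints on the upstream frames from those on the main frame.

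Klhl24, a CUL3 adaptor known in humans from skin fragility, had 10.5 and 10.2 CPM in treated knockout libraries, against 16.7 and 14.4 in untreated ones, and 21.8 and 21.7 CPM in treated wild-type libraries, against 19.0 and 20.8 untreated. It was lower in treated knockout cells (−0.58, SE 0.162, adjusted p = 0.041) and had a change of 0.13 (SE 0.155) in wild type, and the knockout call was lost with any single knockout library left out. Keap1, the CUL3 adaptor that keeps the oxidative stress factor Nrf2 low, had changes of −0.27 in the knockout (adjusted p = 0.329) and 0.02 in wild type (adjusted p = 0.967). Spop, the MATH and BTB adaptor of nuclear speckles, had changes of −0.17 and −0.39 in the same order, neither past the test. Of the 50 BTB genes tested, 3 were called in the knockout and 1 in wild type, beside 8.88% and 4.88% of all genes. None of the 17 Kctd genes, whose BTB domains assemble into rings of several subunits, was called in either genotype, with 3 at an unadjusted p under 0.05 in each. Of all 12267 genes, 3004 in the knockout and 2335 in wild type were under that limit. With so few Kctd genes, the absence of calls does not set them apart.

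Fem1b, a CUL2 receptor known for reading C-terminal degrons and for its part in the response to reductive stress (chr9:62791824-62811648), was called lower in both genotypes. It had 39.7 and 44.4 CPM in treated knockout libraries, against 119 and 98.7 in untreated ones. In wild type it had 58.1 and 54.9 CPM treated, against 104 and 87.4 untreated. The 4 treated libraries lay below all 4 untreated ones. The changes were −1.37 in the knockout (2.59-fold lower, SE 0.139 on the log2 scale, adjusted p = 0.000216) and −0.76 in wild type (1.70-fold lower, SE 0.137, adjusted p = 0.00797), and the wild-type call was lost without untreated replicate A or treated replicate B. Its relatives did not pass the test: Fem1c had changes of −0.17 in the knockout and 0.16 in wild type, and Fem1a, at about 5 to 7 CPM, changes of −0.02 and 0.20.

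Dcaf7, a WD40 receptor of CUL4 also known as a partner of the kinase DYRK1A, had 31.2 and 30.0 CPM in treated knockout libraries, against 52.5 and 50.8 in untreated ones. In wild type it had 45.8 and 44.5 CPM treated, against 45.4 and 48.1 untreated. The treated knockout libraries were below the other 6 and the wild-type groups overlapped. The changes were −0.76 in the knockout (SE 0.121, adjusted p = 0.0022) and −0.05 in wild type (SE 0.120, adjusted p = 0.874), and the knockout call was lost without treated replicate B. Dcaf7 lies at chr11:106036872-106059324, where an antisense gene, Taco1os, covers 29.6% of its span, and no source used here says whether counting was stranded. The other 12 Dcaf genes tested were not called, and the median of the 13 was 0.01 in the knockout and 0.03 in wild type.

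**Figure D1:**
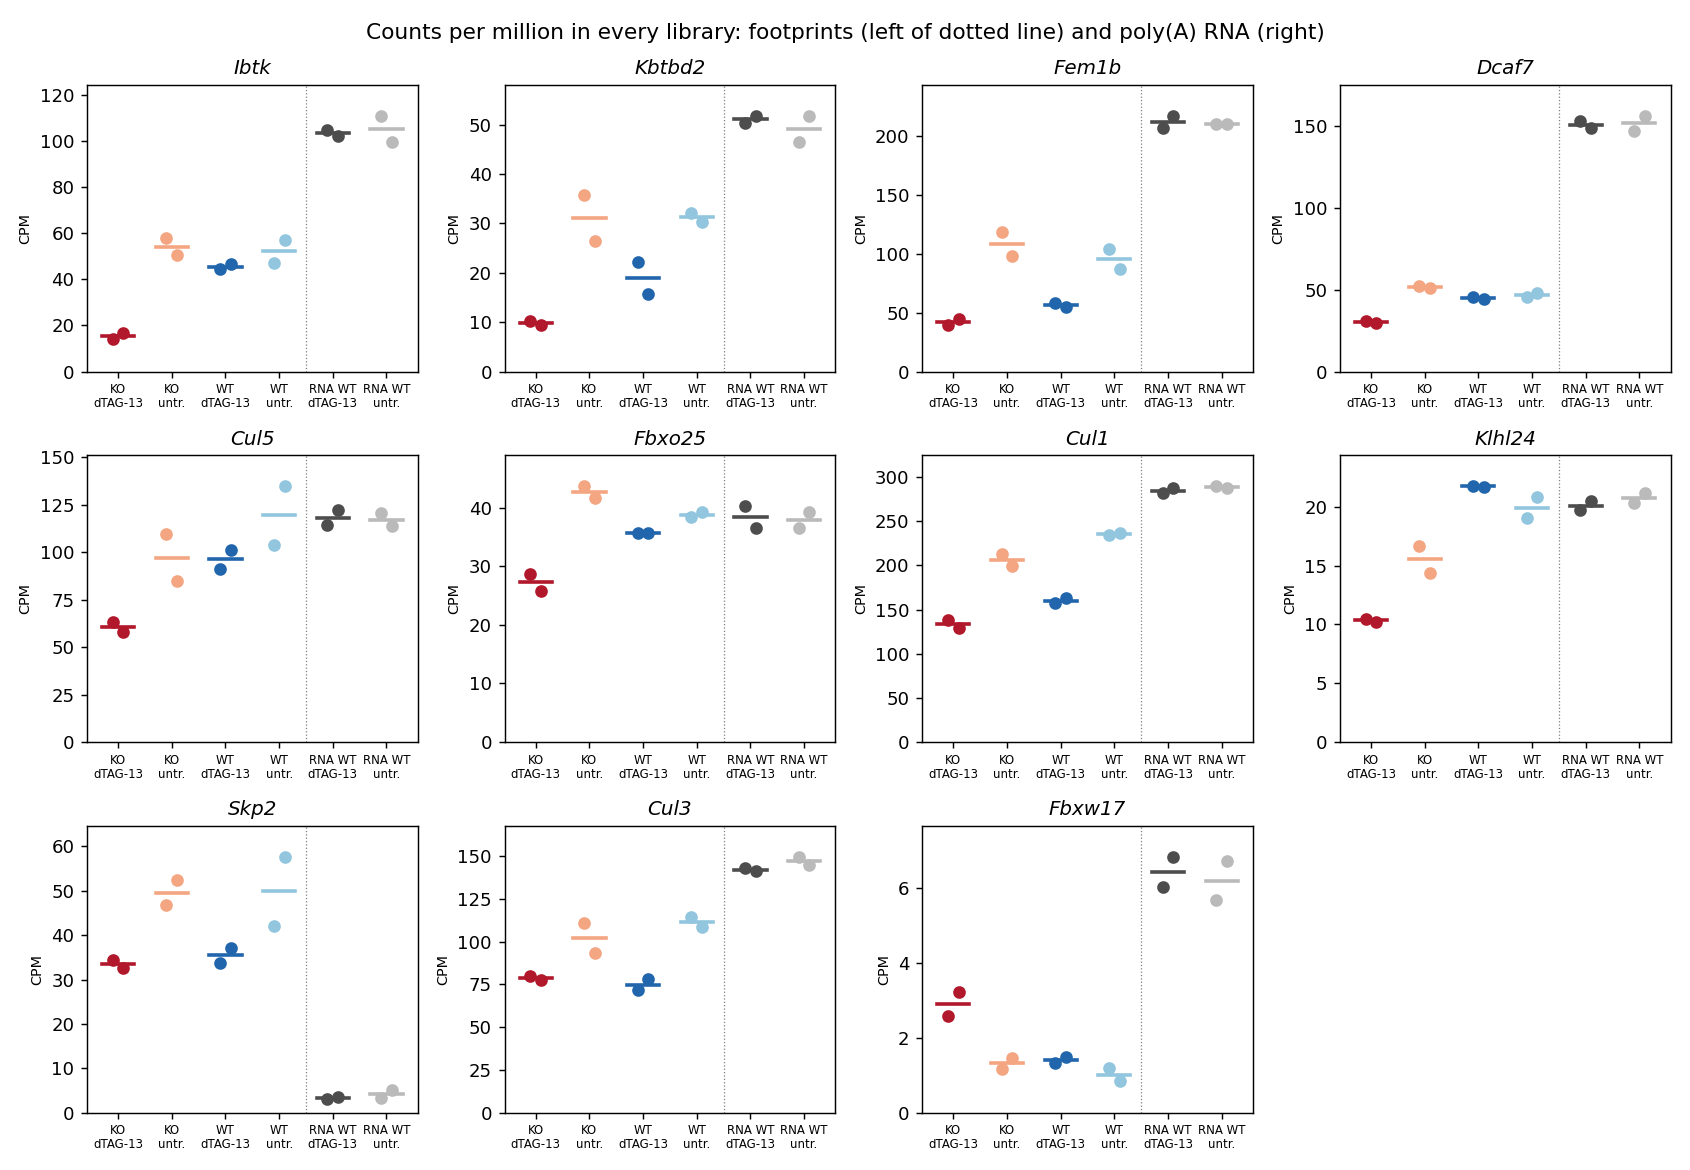
CPM in every library (points, 2 per group) with the group mean (bar) for the 11 members called in at least 1 genotype; in each panel the footprint groups stand left of the dotted line and the poly(A) RNA groups right of it. Ibtk has 14.3 and 16.6 CPM in treated knockout libraries and at least 44.3 CPM in every other footprint library, while its RNA lies between 99.6 and 111 CPM.

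**Figure D2:**
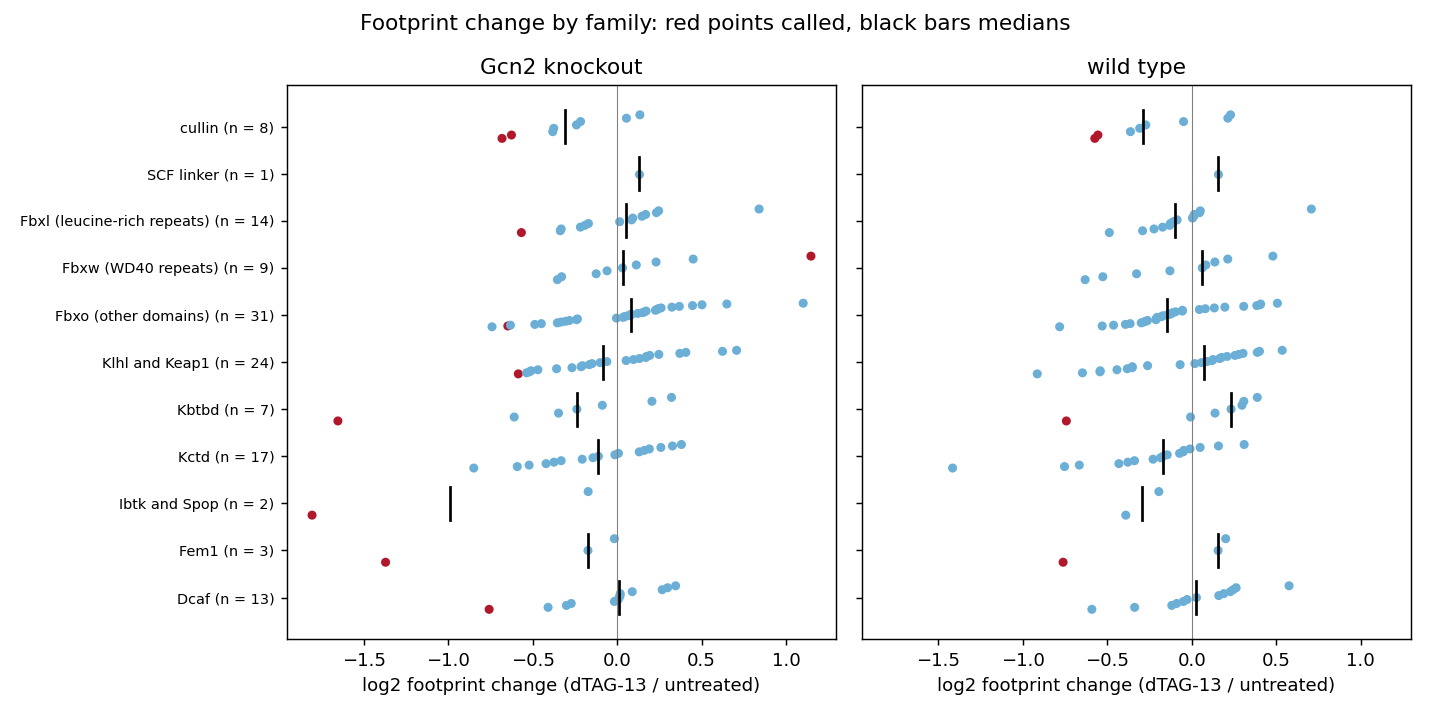
Log2 footprint change, treated over untreated, of the 129 tested members by family in Gcn2 knockout (left) and wild type (right); red points passed the test and black bars are family medians. The 8 cullins have medians of −0.31 in the knockout and −0.29 in wild type with 2 called in each, beside 8.88% and 4.88% of all genes. Every called point lies below 0 except Fbxw17.

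The sequences just upstream of 3 genes that fell in wild-type cells are shown because Fem1b, Cul1 and Cul3 moved in the same direction there and each has a RefSeq start window outside its gene span, which Kbtbd2 has not. For Cul1 this is 1 of 3 windows, and the other 2 lie inside its span. Each is the 250 bases before an annotated start in RefSeq, build GRCm38.p6, read 5′ to 3′ on the strand of the gene, with matches to the motifs searched in capitals. Fem1b is at chr9:62811649-62811898 on the minus strand, Cul1 at chr6:47453482-47453731 on the plus strand and Cul3 at chr1:80340691-80340940 on the minus strand.
Fem1b: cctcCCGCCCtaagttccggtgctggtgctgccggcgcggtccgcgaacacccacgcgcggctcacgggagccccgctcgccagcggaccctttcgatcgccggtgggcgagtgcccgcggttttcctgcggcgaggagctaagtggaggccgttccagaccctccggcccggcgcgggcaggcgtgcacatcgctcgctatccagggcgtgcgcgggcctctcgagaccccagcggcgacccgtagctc
Cul1: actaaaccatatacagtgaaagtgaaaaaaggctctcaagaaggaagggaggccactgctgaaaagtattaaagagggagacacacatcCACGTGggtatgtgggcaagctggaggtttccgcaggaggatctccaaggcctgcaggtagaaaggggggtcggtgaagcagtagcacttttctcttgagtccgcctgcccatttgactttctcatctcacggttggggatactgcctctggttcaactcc
Cul3: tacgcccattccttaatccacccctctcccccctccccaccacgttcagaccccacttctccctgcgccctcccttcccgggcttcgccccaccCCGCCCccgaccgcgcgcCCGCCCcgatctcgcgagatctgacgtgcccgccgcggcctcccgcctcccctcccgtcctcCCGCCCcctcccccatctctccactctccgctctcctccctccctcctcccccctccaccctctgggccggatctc
The capitals mark a GC box (GGGCGG, or CCGCCC on the other strand) in Fem1b and Cul3, and an E-box (CACGTG) in Cul1, whose 2 further annotated starts have a GC box upstream. Windows were found for 8 of the 10 members that fell in either genotype, 11 windows in all, each of 250 bases before and 50 after a start. A GC box was in 9 of these 11 (81.8%), in 69.7% of the 145 windows of tested members and in 35.7% of 32851 annotated windows. CCAAT was in 3 of 11, beside 27.6% and 37.4% in the same order, the E-box in 2 of 11, beside 7.59% and 7.15%, and TATAAA in 1 of 11, beside 4.83% and 13.6%. The ETS motif CCGGAAG was in 0 of 11 (21.4% and 8.86%), the NRF1 motif in 0 of 11 (9.66% and 4.60%) and the cyclic AMP element TGACGTCA in 0 of 11 (2.07% and 1.79%). All were searched on both strands, and no motif is contained in another. The composite C/EBP-ATF element TGATGNAAT was in 0 of the 145 member windows and in 0.965% of all. A start on C followed by 4 pyrimidines, the mark of TOP mRNAs, was in 0 of 11 and in 1 of 145 member windows, beside 2.51% of all windows and 18.4% of those of ribosomal protein genes.

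Whether the treatment response differed between the genotypes was tested by subtracting the wild-type change from that of the knockout. Ibtk was the only member to pass: its difference was −1.61 (SE 0.206, adjusted p = 0.0166 with edgeR), 1 of 129 members (0.775%) beside 0.0489% of all genes, of which 6 passed. The pass was lost without any one of the 4 knockout libraries, with adjusted p between 0.102 and 0.236 and differences between −1.77 and −1.51, and it held without each wild-type library. For Kbtbd2 the difference was −0.91 (SE 0.277, adjusted p = 0.277), for Dcaf7 −0.71 (SE 0.170, adjusted p = 0.19), for Klhl24 −0.71 (SE 0.224, adjusted p = 0.29), for Fem1b −0.61 (SE 0.194, adjusted p = 0.299) and for Fbxo25 −0.52 (SE 0.179, adjusted p = 0.332). These 5 did not pass in this fit, which does not show their changes to differ between genotypes, although 4 of them were larger falls in the knockout than in wild type and Klhl24 was positive in wild type. For Cul5, Skp2, Cul1 and Fbxw17, the remaining members called in the knockout, the differences were −0.37, −0.08, −0.07 and 0.67 with adjusted p of at least 0.611. At an unadjusted p under 0.05 were 11 of 129 members, beside 1229 of all 12267 genes.

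The 2 changes of a member come from separate libraries, 4 per genotype. Both were below 0 for 50 members and both above 0 for 38, so 88 of 129 (68.2%) had the same sign, beside 65.3% of all genes. Across the members Pearson's r between the 2 changes was 0.440, and over all genes 0.455. Limited to an average log2 CPM of at least 3, r was 0.595 over 85 members and 0.577 over 8210 genes. These values describe genes that share libraries and scaling and are not independent points. Fem1b, Kbtbd2 and Cul1 were called lower in both genotypes and 7 members in the knockout without a wild-type call. More calls in the knockout were also seen over all 12267 genes, 1089 against 599 in wild type. The all-gene number called in both was not worked out, so this split is not shown to be particular to the members. The spread between replicates was also unequal. The chi-square per degree of freedom between the 2 libraries of a group was 2.44 in treated and 13.8 in untreated knockout cells. In wild type it was 11.4 treated and 19.95 untreated. The shared fit gave each gene 1 dispersion over all groups, and its part in the numbers of calls was not tested.

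**Figure D3:**
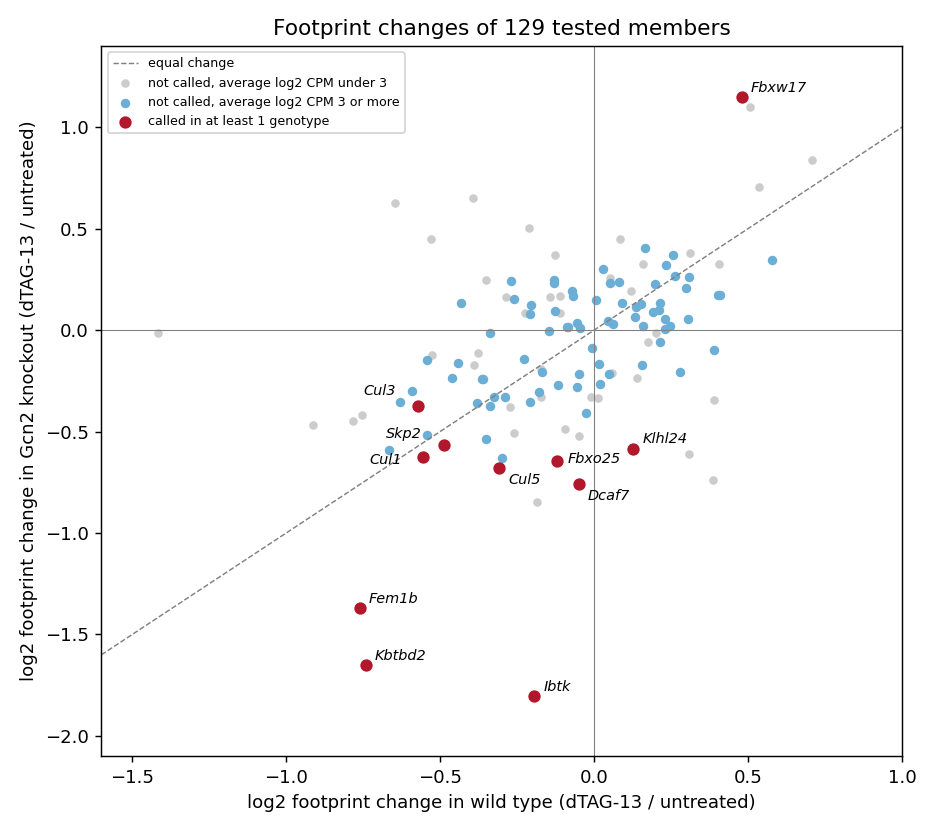
Log2 footprint change of each tested member in Gcn2 knockout (vertical) against wild type (horizontal), treated over untreated, with the dashed line at equal change. Ibtk lies at −1.81 and −0.19, far below the line, while Fem1b, Kbtbd2 and Cul1 are below 0 on both axes.

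Before treatment, Gcn2 knockout and wild-type cells were set against each other. None of the 129 members passed edgeR's test, beside 0.00815% of all genes, while DESeq2 called 1, beside 0.228% of all genes. With edgeR 10 members were at an unadjusted p under 0.05, beside 733 of all 12267 genes. Ibtk had 57.7 and 50.5 CPM in untreated knockout libraries, against 47.1 and 57.1 CPM in untreated wild-type libraries, and these overlapped, with a log2 difference of 0.06 (adjusted p = 0.956). Kbtbd2 had a difference of −0.01 and Fem1b of 0.19, neither past the test. The 1 member that DESeq2 called was Klhl26, a BTB and kelch gene named after its values were seen, with 34.6 and 32.6 CPM in untreated knockout libraries, against 18.04 and 12.6 CPM in untreated wild-type libraries. These groups were apart, with a log2 difference of 1.13 (SE 0.196), an adjusted p of 0.162 with edgeR and of 0.000527 with DESeq2. With edgeR it was called without the filter on low counts (adjusted p = 2.4e-07), a fit that called 0.686% of all genes. It was also called by edgeR with a block for the replicate letter (adjusted p = 0.0171), beside 0.114% of all genes. Without untreated wild-type replicate A the log2 difference was 1.41.

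Poly(A) RNA showed whether the mRNAs themselves had changed in wild-type cells after 1 h. No member of 134 tested passed edgeR's test, beside 0.163% of all 15955 genes, and DESeq2 called 0. With edgeR 11 members were at an unadjusted p under 0.05, beside 819 of all genes. Without untreated RNA replicate B, 1 member was called, Fbxl19 (−0.17). Kbtbd2 had 50.3 and 51.8 RNA CPM in treated libraries, against 46.5 and 51.8 CPM in untreated ones. For Fem1b the RNA levels were 207 and 218 CPM treated, against 210.2 CPM in both untreated libraries, and for Cul1 282 and 288 CPM treated, against 289.8 and 287 untreated. The treated and untreated RNA values of these 3 overlapped or lay side by side. Their log2 RNA changes were 0.06 (SE 0.0699), 0.01 (SE 0.0486) and −0.02 (SE 0.0464) in the same order, and that of Cul3 was −0.05 (SE 0.0514). No RNA was sequenced from knockout cells, so the RNA of Ibtk, at 105 and 102 CPM in treated and 111 and 99.6 CPM in untreated wild-type libraries, is known for wild type alone.

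The footprint change beyond the RNA change, called translational efficiency here, was tested in 1 model over the 8 wild-type libraries. Fem1b (−0.78, SE 0.140, adjusted p = 0.0295) and Cul1 (−0.54, SE 0.111, adjusted p = 0.0457) passed, both lower, 2 of 135 members (1.48%) beside 1.47% of all 12887 genes called in either direction and 0.691% called lower. Kbtbd2 (−0.81, SE 0.203, adjusted p = 0.0834) and Cul3 (−0.52, SE 0.120, adjusted p = 0.0636) did not. The model gave each gene 1 dispersion for both assays, although footprints varied more. Fitted apart, the common coefficient of biological variation was 0.116 for footprints and 0.0434 for RNA. The SE and adjusted p of this test may therefore be too small. For Cul3 the SE was no larger than that of its footprint change alone (0.123). Without any one of the 4 RNA libraries edgeR called 0 members and 0 of all genes, with 11 to 14 members at an unadjusted p under 0.05, while the changes ran between −0.82 and −0.75 for Fem1b and between −0.55 and −0.53 for Cul1. Cul1 also missed the threshold without treated footprint replicate A (adjusted p = 0.0666). Without untreated footprint replicate B 8 members passed, beside 5.06% of all genes, and without treated footprint replicate B 4 passed, beside 2.08%.

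**Figure D4:**
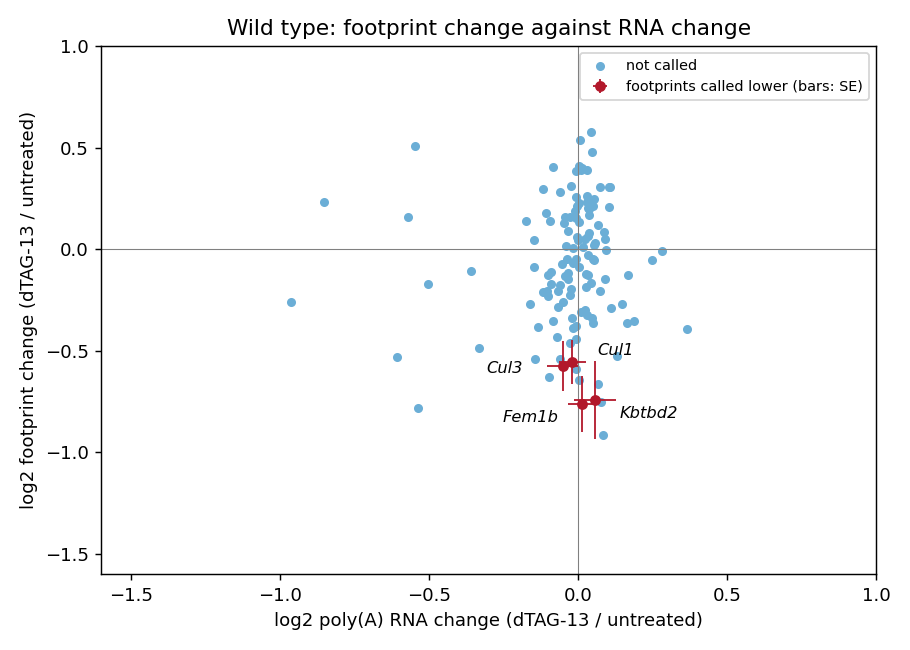
Log2 footprint change (vertical) against log2 poly(A) RNA change (horizontal) in wild-type cells, treated over untreated, for the 125 members tested in both; red points with SE bars are the 4 members called lower. Fem1b, Kbtbd2, Cul1 and Cul3 lie between −0.55 and −0.76 on the footprint axis with RNA changes between −0.05 and 0.06.

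Genes of the same pathway outside the members were counted from lists of ligase cores, linkers, receptors and regulators, with Nrf2 and 9 of its targets added. The lists were drawn up with earlier results of these data known, so their shares are a description and no test of the pathway. Of 122 tested, 18 (14.8%) were called in the knockout, 4 higher and 14 lower, beside 8.88% of all genes, and 8 (6.56%) in wild type, all lower, beside 4.88%. Among 6 core and RING genes, Arih2, the ligase that works with neddylated CUL5, was the one called, with changes of −0.76 in the knockout (SE 0.120) and −0.60 in wild type (SE 0.120). It had 78.0 and 85.3 CPM in treated knockout libraries, against 145 and 132 in untreated ones. Of 10 subunits of the COP9 signalosome, which removes NEDD8 from cullins, 3 fell in the knockout, the deneddylase gene Cops5 (−0.44), Cops6 (−0.44) and Cops7b (−1.05), and Cops7b alone in wild type (−0.79). Of 11 neddylation genes 1 was called: Uba3, the catalytic subunit of the NEDD8-activating enzyme, rose in the knockout (1.24, SE 0.219, adjusted p = 0.00398), with 17.8 and 24.0 CPM treated, against 8.73 and 9.04 untreated. Its wild-type change of 0.82 missed the threshold (adjusted p = 0.061).

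Of 14 CUL4 linker and receptor genes, edgeR called 4 in the knockout and 0 in wild type, beside 8.88% and 4.88% of all genes. Dtl, the receptor that removes CDT1 in S phase (0.62), and Dda1, a DDB1 partner (0.48), rose, while the receptor genes Ambra1 (−0.68) and Wdtc1 (−0.48) fell. In wild type 7 of the 14 were at an unadjusted p under 0.05, beside 2335 of all 12267 genes. Crbn, the receptor that dTAG-13 itself binds, had 61.9 and 58.5 CPM in treated knockout libraries, against 70.1 and 61.6 in untreated ones, and its changes were −0.13 in the knockout (adjusted p = 0.552) and 0.09 in wild type (adjusted p = 0.764). Ddb1, the CUL4 linker, had changes of −0.57 in the knockout (adjusted p = 0.094) and 0.59 in wild type (adjusted p = 0.109), and their difference of −1.16 did not pass (adjusted p = 0.19). Socs3 was the only called gene of 32 CUL2 and CUL5 linkers and receptors, with −0.89 in the knockout (adjusted p = 0.029), and its RNA rose by 0.26 in wild type (adjusted p = 0.00435).

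Of 22 further BTB genes, 4 fell in the knockout, Ivns1abp, Rcbtb1, Rhobtb2 and Btbd10, and 4 in wild type, Ivns1abp, Rcbtb1, Rhobtb3 and Btbd1. Called lower over all genes were 5.71% and 1.94% in the same order. Ivns1abp, a kelch protein named for binding an influenza protein, had 12.3 and 16.4 CPM in treated knockout libraries, against 31.5 and 23.4 in untreated ones, and a wild-type change of −1.21 (SE 0.199, adjusted p = 0.00537). In the list of F-box proteins with other names, the 2 genes called, Ecd and Usp47, are not F-box proteins but partners of SCF ligases. Ecd changed by −1.04 in the knockout and −0.70 in wild type, and Usp47 by −0.78 and −0.59. Of Nrf2 and 9 of its targets, Nfe2l2, which encodes Nrf2, rose in the knockout (0.49, adjusted p = 0.0427). The thioredoxin reductase gene Txnrd1 fell there (−0.52, adjusted p = 0.0169). In wild type edgeR called 0 of the 10, with 4 at an unadjusted p under 0.05, beside 2335 of all 12267 genes. Beyond RNA, the translational efficiency of Arih2 (−0.64), Ecd (−0.71) and Ivns1abp (−1.20) fell in wild type, and of the pathway genes Enc1, a BTB and kelch gene, was the other one with a called RNA change (0.26, adjusted p = 0.0258).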

How the data were processed

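The authors deposited raw counts per gene symbol in 2 tables, one for ribosome footprints (8 libraries) and one for poly(A) RNA (4 libraries). CASAVA 1.4, cutadapt, HISAT2 2.1.0 and mm10 appear in the submitters' processing notes. No counting tool, annotation or strand setting is given in the sources used here. Each column was assigned by genotype, treatment and replicate letter. For treated knockout replicate B the assignment rests on the title alone, because its description names the column of replicate A.

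Counts were fitted with edgeR 4.0.16 (R 4.3.3) by quasi-likelihood negative binomial tests with robust dispersions, after filterByExpr with a minimum count of 10 and TMM scaling. A call needed an adjusted p (Benjamini-Hochberg, two-sided, over every gene tested) under 0.05. One fit by group took all 8 footprint libraries (12267 genes with 4 residual degrees of freedom) and another the 4 RNA libraries (15955 genes with 2 residual degrees of freedom). For translational efficiency, an assay by treatment interaction was fitted to the 8 wild-type libraries (12887 genes). CPM are counts per TMM-scaled library size, and SEs are of log2 changes. Footprint symbols were joined to the RNA table as written (20050) or through RefSeq synonyms (84). The scripts were tested on simulated data. Alternatives were DESeq2 1.42.0, limma 3.58.1 (voom), RLE and library-total scaling, other filters (none, or a mean count of at least 50), each genotype alone, a block for the replicate letter, and leaving out each library.

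The members and the pathway lists were chosen with earlier results of these data known. Named were the cullins, Skp1, Skp2, Keap1, Spop, Ibtk, Kbtbd2, the Fem1 genes, every called member, called genes of the pathway lists, Crbn and Ddb1. Promoter windows and positions come from RefSeq, build GRCm38.p6, the assembly that mm10 denotes.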

Additional observations from a re-analysis of the deposited data

Results flagged for a closer look

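Ibtk stood out because its treatment change differed between the genotypes by a test of the difference itself. The log2 difference, knockout minus wild type, was −1.61, with changes of −1.81 in Gcn2 knockout cells and −0.19 in wild-type cells. The difference no longer passed without any single knockout library.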

How the results depend on the processing

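No called value of a named member changed direction under any alternative tried. In the knockout, 17 members were called with library totals (11.3% of all genes), 18 with the knockout libraries alone (15.8%) and 3 to 7 with 1 library left out (1.71% to 4.85%). In wild type, 12 were called with no filter on low counts (6.36% of all genes), 0 with the wild-type libraries alone (20 at an unadjusted p under 0.05, and 0.159% of all genes called) and 1 to 7 with 1 library left out (1.59% to 5.33%). For the difference between genotypes, 2 of 162 members passed with no filter (Ibtk and Kbtbd2), beside 1.16% of all genes. For untreated knockout against wild type, DESeq2 called 1 (0.228% of all genes) and no filter 3 (0.686%). Klhl26 was called each time, and with no filter also Fbxw7 and Klhl42. For RNA the count was 0 to 1 with 1 library left out. For translational efficiency it was 5 with no filter (2.76% of all genes) and 0 to 8 with 1 library left out (0% to 5.06%). The median footprint to RNA ratio was 0.640 with library totals and 0.621 otherwise. A library left alone in its group was assumed to vary like the others, and the cause of these shifts was not tested.

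With the replicate letter as a replicate block, 9 members were called in wild type (7.59% of all genes) and 12 in the knockout (12.7%). Between untreated genotypes 1 was called (Klhl26, beside 0.114% of all genes), and for RNA 0. A replicate block within each genotype gave 24 of 129 in wild type (17.2% of all genes), 25 in the knockout (25.7%) and 5 for the difference (5.98%). These 5 were Ibtk, Dcaf7 (adjusted p = 0.00543), Kbtbd2 (adjusted p = 0.00583), Fem1b (adjusted p = 0.0143) and Klhl24 (adjusted p = 0.0283), each with a negative difference, knockout minus wild type. A replicate block within each assay gave 17 of 135 for translational efficiency (12.1% of all genes). Over all genes the A minus B differences of treated and untreated wild type correlated at 0.565, those of the 5 other pairs of footprint groups at 0.0206 to 0.128 and those of the RNA groups at 0.0196. No label ties a letter to a shared batch, and there are 2 letters only, so the letters were not used as pairs. With 2 libraries a group, genes at a few CPM have wide errors: the median SE of a member's log2 change was 0.188 in the knockout and 0.0882 for RNA.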

Other observations

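The ratio of footprint CPM to RNA CPM in untreated wild-type cells had a median of 0.621 over 135 members, with a middle range of 0.344 to 0.976. Gene length cancels in this ratio only where both tables count the same stretch of a gene. Cullins had a median ratio of 0.900, between 0.281 for Cul7 and 1.28 for Cul2. At the top stood Klhl22 with 60.7, Kbtbd4 with 19.4, Kctd19 with 13.5 and Skp2 with 11.8, followed by Kctd16, Fbxo6, Kctd20, Dcaf13 and Klhl42 between 7.11 and 2.65, while Fbxo32 was listed at 0 in the untreated RNA. These genes are named after their values were seen. Of the 10 members above 2, 5 overlap another annotated gene, against 52 of the other 125. High ratios are not particular to the members. The stem cell marker Pou5f1 had 1356 and 1256 footprint CPM against 5.72 and 6.88 RNA CPM in untreated wild type. No ratio over all genes was worked out.

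Fbxo15, an F-box gene known as a marker of undifferentiated embryonic stem cells and named after its values were seen, did not pass the test. Its treatment changes were 0.17 in the knockout (adjusted p = 0.425) and 0.41 in wild type (adjusted p = 0.0812).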
